A study of Mus musculus with 4 samples.

Results

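The regions described here are stretches of the mouse genome listed as lower in acetylated histone H3 in the pressure-overloaded left ventricle than in the sham-operated one. They were so listed both for animals injected with vehicle and for animals injected with trichostatin A (TSA). They were chosen by overlap of 2 lists deposited by the authors. A region listed as lower in the TAC Veh library than in the Sham Veh library was kept when it overlapped by at least 1 bp a region listed as lower in the TAC TSA library than in the Sham TSA library, on chromosomes 1 to 19 (mm9 build). This gave 240 of the 3797 regions of the vehicle list, and they met 235 of the 5230 regions of the TSA list. All 6 deposited lists together hold 17649 regions on these chromosomes. The 240 are called shared regions below.

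Chromatin carrying acetylated histone H3 was immunoprecipitated from mouse left ventricle and sequenced. The mice were C57BL6 males, 10 to 12 weeks old. The TAC Veh group had transverse aortic constriction, a surgical narrowing of the aorta that loads the left ventricle, and injections of the solvent DMSO. The Sham Veh group had the sham operation and DMSO. The TAC TSA group had the constriction and TSA at 0.6 mg per kg per day, and the Sham TSA group the sham operation and the same TSA dose. All 4 groups were injected under the skin 2 times a day for 4 weeks and each is a single library, which leaves every value below without a replicate. Whether animals were pooled is not stated in the labels. An earlier deposit is cited for the Sham Veh and Sham TSA libraries but not for the TAC libraries, and surgery and deposit cannot be told apart.

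Acetylation of histone H3 tails loosens the contact between nucleosomes and DNA and marks active promoters and enhancers. Acetyltransferases write the mark and histone deacetylases (HDACs) remove it. TSA blocks the zinc-dependent HDACs. In the heart, HDACs take part in the growth response to overload, and their inhibitors reduce hypertrophy in rodents. The 2 lists share no library, so their overlap asks which regions are listed as lower after overload whichever injection was given.

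The shared regions were a small part of either list. They made up 6.32% of the vehicle list (exact binomial 95% interval 5.57 to 7.14) and the regions they met made up 4.49% of the TSA list (3.95 to 5.09). These intervals treat regions as independent and cover counting error only. By length, the whole vehicle intervals of the shared regions held 438.3 kb, or 8.2%, of the 5346.5 kb in the vehicle list. Only 349.3 kb of this lay in the overlap with the best-matched TSA interval of each region. The opposite combination was rarer. Only 12 regions of the vehicle list (0.316%) overlapped a region listed as higher in TAC TSA than in Sham TSA. That list is shorter, with 2088 regions against 5230 listed as lower, and the shares are not adjusted for this. Of the 1087 regions higher in TAC Veh than in Sham Veh, 32 (2.94%) met a region higher in TAC TSA than in Sham TSA and 30 (2.76%) met a region lower there. The 32 are 1.53% of the 2088 regions higher in TAC TSA than in Sham TSA.

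Where the lists met, they mostly marked the same stretch. The median overlap was 1154 bp and the widest 6986 bp. In 116 of the 240 regions the shorter of the 2 intervals lay wholly inside the longer. In 82 of these the vehicle interval lay inside the TSA interval, and in 34 it enclosed the TSA interval. Both ends lay within 250 bp of each other in 82 regions and within 100 bp in 27, and no pair had identical ends. An overlap under 50% of the shorter interval was found in 14 regions, of which 6 were under 10%. The vehicle interval was the narrower in 146 regions and the wider in 94. A single shared region met 2 intervals of the TSA list, and 6 intervals of the TSA list each met 2 shared regions.

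At the threshold of the rule, the smallest overlaps were 4 bp at chr4:99611807-99612658, 11 bp at chr12:30647079-30648738 and 48 bp at chr4:142733197-142734045. Just outside it, the smallest gaps to the TSA list were 2 bp at chr5:8569821-8570803, 22 bp at chr2:181012106-181013524 and 30 bp at chr10:127798301-127800917. The caller's scores in the vehicle list were 43.61, 55.97 and 42.46 for the first 3 and 51.49, 49.55 and 94.93 for the last 3. In all, 41 regions that are not shared lay within 500 bp of a TSA interval, whereas the median gap of the regions that are not shared was 79.7 kb.

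Shared regions were broad. Their width in the vehicle list ranged from 176 to 12331 bp with a median of 1505 bp, against a median of 987 bp (162 to 11081) in the rest of that list. In the TSA list the matched regions had a median of 1731 bp (252 to 8444), against 1219 bp (269 to 11913) in the rest. The widths of a locus in the 2 lists went together, with a Spearman rho of 0.597 across the 240 regions, which share the underlying chromatin and the caller.

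**Figure D1:**
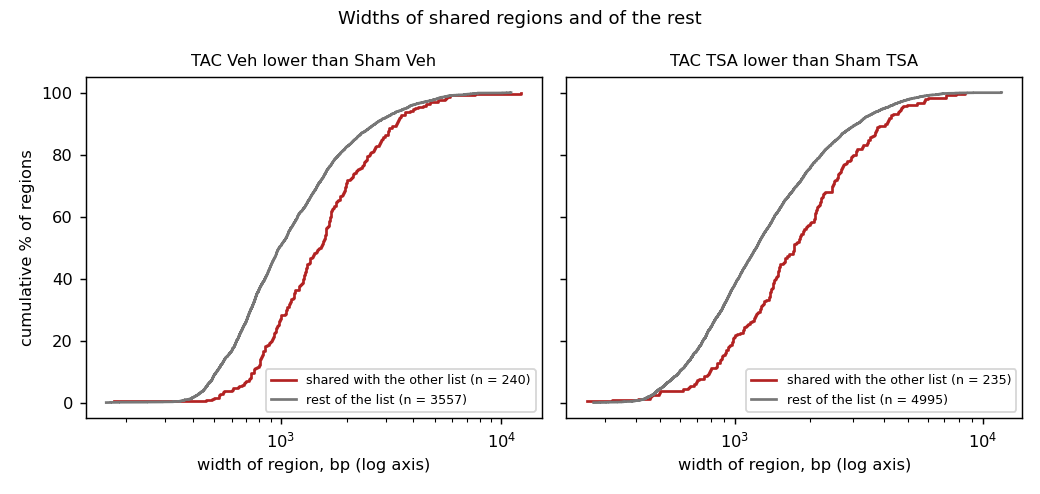
Cumulative share of regions (vertical axis, %) by width in bp (horizontal log axis) in the vehicle list, left, and the TSA list, right. The red curves of the shared regions run to the right of the grey curves of the rest, with medians of 1505 against 987 bp and 1731 against 1219 bp.

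The widest shared region was chr1:182276338-182288668, with 12331 bp in the vehicle list and 4939 bp in the TSA list. It had a low score in the vehicle list, 46.47, and a higher one in the TSA list, 69.05. The next were chr11:77261451-77269044 (7594 bp), chr9:21239527-21245372 (5846 bp), chr13:83709752-83715427 (5676 bp) and chr5:122033792-122039404 (5613 bp). Width and score were not the same ordering, since these 5 had vehicle scores between 45.86 and 170.44.

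The share of each list that was shared went up with width. Each list was split into 4 groups of equal size by width. In the vehicle list the share was 1.79% of the narrowest group, 5.37% and 7.69% of the next groups and 10.43% of the widest. In the TSA list the 4 shares were 1.99%, 3.29%, 5.13% and 7.57%. By score the slope was smaller, with 4.63% of the lowest and 8.32% of the highest group in the vehicle list, and 3.82% and 5.58% in the TSA list. A wide interval can meet another more easily, and the part of this in the shares was not tested.

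**Figure D2:**
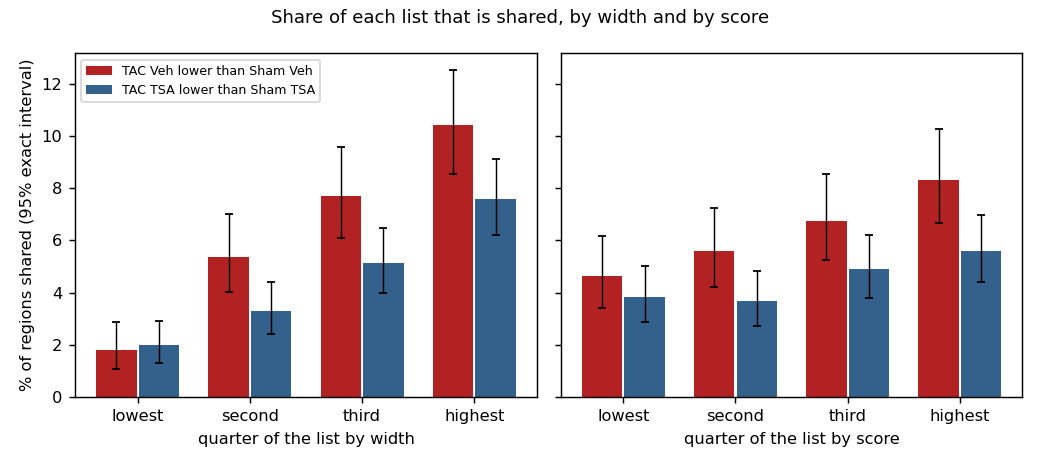
Share of each list that overlaps the other (vertical axis, %) in 4 groups of the list by width, left, and by the caller's score, right, with exact 95% binomial intervals for counting error. By width the bars climb to 10.43% in the vehicle list (red) and 7.57% in the TSA list (blue), while by score they reach 8.32% and 5.58%.

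Each region came with a score from the authors' caller, and here it only ranks regions within a list. Both lists begin at a score of 40. Since both lists chose the regions, their scores are described without a test. In the vehicle list the shared regions had a median of 52.58 (40.06 to 275.05), against 48.6 (40 to 598.65) in the rest. In the TSA list the matched regions had a median of 52.3 (40 to 141.35), against 49.64 (40 to 394.4) in the rest. The highest scores of both lists therefore belonged to regions that are not shared.

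A high score with vehicle did not come with a high score with TSA. Across the 240 regions the Spearman rho between the 2 scores was -0.069 and Pearson's r of the log2 scores was -0.11. The 2 scores of a region share no library, but all 240 points come from the same 4 libraries. Both scores are cut at 40 by the lists that chose the regions. Of the shared regions 41 were in the top 10% of the vehicle list and 25 in the top 10% of the TSA list, and 1 was in both. In the top 25% of both lists were 16 regions.

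**Figure D3:**
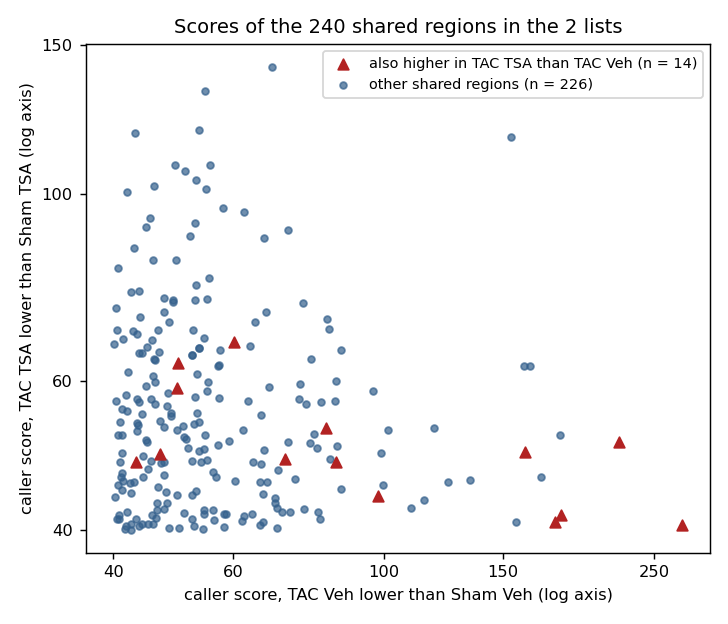
The caller's score of each shared region in the vehicle list (horizontal log axis) and in the TSA list (vertical log axis). Red triangles are the 14 regions that are also listed with more signal in TAC TSA than TAC Veh, and blue dots the other 226. A single dot, at 154.05 and 116.71, lies high on both axes, and the 5 triangles farthest to the right lie between 40.47 and 50.8 on the vertical axis.

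The region high in both lists was chr1:181515415-181518945, 3531 bp wide. It scored 154.05 in the vehicle list and 116.71 in the TSA list, and its TSA interval, 3723 bp wide, enclosed it completely. It ranked in the top 0.869% of the vehicle list and in the top 2.03% of the TSA list. It is in neither list that compares the TAC TSA library with the TAC Veh library.

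By the mean of the 2 ranks, the next regions were led by either list. At chr3:88504077-88505380 the TSA score of 141.35, the highest of any shared region in that list, stood beside a vehicle score of 68.39. At chr11:30130056-30132689 the scores were 72.29 with vehicle and 90.63 with TSA, and at chr4:151196503-151197484 they were 66.72 and 88.57. The region chr12:117563651-117564405, only 755 bp wide, had 62.28 with vehicle and 95.09 with TSA. These 4 regions ranked higher in the TSA list than in the vehicle list.

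A more even pair of scores was found at chr10:56699175-56700475 (82.49 with vehicle, 71.09 with TSA), chr9:109870677-109872274 (75.99 and 74.26) and chr13:99679419-99681792 (83.09 and 69.1). At chr7:51931202-51932881 the vehicle score of 161.2 stood beside a TSA score of 62.56, and at chr9:57586666-57591848 the vehicle score was 164.43 and the TSA score 62.45. None of the 10 regions of best mean rank is listed as different between the TAC TSA and TAC Veh libraries.

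Whether the shared regions also differed between the overloaded hearts with and without TSA was read from the 2 lists that compare the TAC TSA with the TAC Veh library. These lists reuse both TAC libraries, so they are not independent of the choice of regions. Of the 240 shared regions 14 (5.83%, exact interval 3.23 to 9.59) overlapped a region with more signal in TAC TSA than TAC Veh, against 335 (9.42%, 8.48 to 10.43) of the 3557 others. The figure for the whole vehicle list is 9.19%. None overlapped a region with less signal in TAC TSA than TAC Veh, against 5 of the others (0.132% of the whole vehicle list). The shared regions were chosen as low in TAC Veh, the library to which that list compares TAC TSA. A count near 0 thus follows in part from the choice. For 240 regions a count of 0 allows a share of up to 1.3%, taken as 3 counts, which covers counting error only. The remaining 226 shared regions are in neither list. On the side of the TSA list, none of the 235 matched regions and 663 (13.27%) of the 4995 others overlapped a region with less signal in TAC TSA than TAC Veh. The matched regions meet regions chosen as low in TAC Veh, so that contrast is a description only.

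The 14 regions listed as above TAC Veh, and yet below Sham TSA, in the TAC TSA library included those with the highest vehicle scores. Of the 10 highest vehicle scores among the shared regions 5 belonged to them, and of the 10 highest TSA scores none did. Their vehicle scores had a median of 83.68 (43.13 to 275.05), against 52.26 (40.06 to 181.89) in the other 226. Their TSA scores had a median of 48.82 (40.47 to 66.74), against 52.48 (40 to 141.35). The TAC Veh library enters both the vehicle score and the choice of the 14, and the TAC TSA library both the TSA score and that choice, so a lower TAC Veh or higher TAC TSA signal moves these together and the medians are a description only. Their median width, 1521.5 bp, was close to the 1505 bp of the other 226.

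At chr18:10784398-10788078 the score was 275.05 for TAC Veh below Sham Veh, 40.47 for TAC TSA below Sham TSA and 125.02 for TAC TSA above TAC Veh. This was the highest vehicle score of all shared regions, and its TSA score was almost at the floor of the list. At chr15:58153334-58155809 the 3 scores were 222.26, 50.8 and 92.76, and at chr19:27387416-27388264 they were 161.33, 49.44 and 85.05. At chr19:53802973-53807174, 4202 bp wide, they were 178.67, 40.79 and 45.65. The region chr8:95720331-95721923 had 182.41, 41.62 and 152.73, but only 100 bp of its 1593 bp overlapped the TSA interval. The lowest vehicle score among the 14 was 43.13, at chr8:79756088-79756614, which lies under the same TSA interval as the shared region chr8:79756649-79758098.

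The shared regions were scattered over all 19 autosomes. The median distance from one to the nearest other on its chromosome, on either side, was 2757 kb. When shared regions less than 12.5 kb apart were joined, 220 stayed alone and 20 formed 10 pairs, and no stretch held more than 2. Another region of the vehicle list lay within 12.5 kb of 63 shared regions (26.2%), against 687 (19.3%) of the others. The median distance to the nearest other region of the vehicle list was 47.9 kb for shared regions and 80.5 kb for the others.

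The 5 pairs covering the most bases were on chromosomes 11, 19, 12, 9 and 10. The pair at chr11:77258643-77269044 covered 10373 of 10402 bp, with a highest score of 170.44 with vehicle and 46.22 with TSA. Both of its regions met the same TSA interval of 7085 bp, the wider one by 6986 bp and the other, 2779 bp wide, by only 70 bp. The pair at chr19:53799503-53807174 covered 7551 of 7672 bp, with 178.67 with vehicle and 40.79 with TSA. A TSA interval of 7815 bp enclosed both regions of the chromosome 19 pair, so the vehicle list split there what the TSA list gave as 1 region. The pairs at chr12:16624814-16643409 (114.55 and 72.53), chr9:57573524-57591848 (164.43 and 62.45) and chr10:39236956-39243694 (62.36 and 47.98) were near 3, 3 and 2 intervals of the TSA list.

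Chromosome 19 had the highest share, 15 of 136 regions of the vehicle list or 11.03% (exact interval 6.31 to 17.54), and chromosome 14 the lowest, 4 of 164 or 2.44% (0.67 to 6.13). Chromosome 2 held the most, 22 of 265. On the TSA side chromosome 19 was also highest, with 8.43%, and chromosome 14 lowest, with 1.91%. With 19 chromosomes set side by side and no test, nothing particular to chromosome 19 or 14 is shown.

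**Figure D4:**
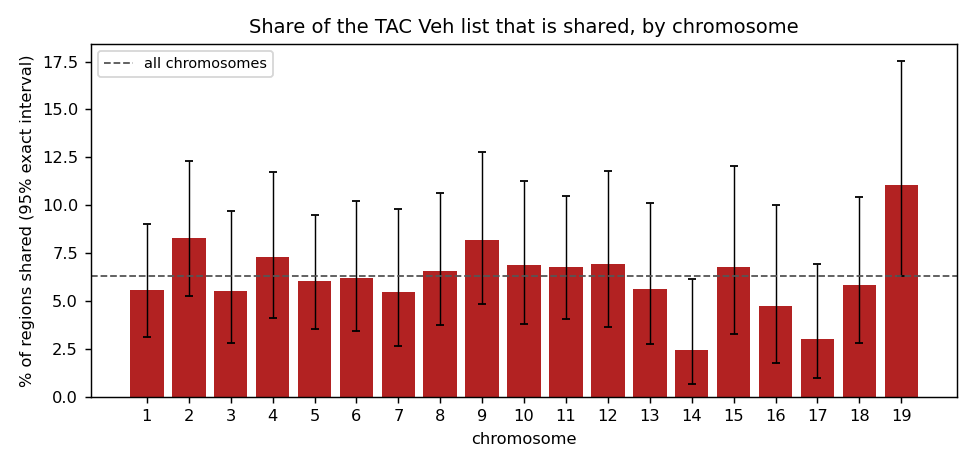
Share of the vehicle list that is shared (vertical axis, %) on each autosome, with exact 95% binomial intervals for counting error and the 6.32% of all autosomes as a dashed line. The bars run between 2.44% on chromosome 14 and 11.03% on chromosome 19, with wide intervals.

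The same pattern was looked for in the authors' raw counts per promoter. These are given by RefSeq transcript without mm9 coordinates, so a promoter is not assigned to a shared region here, and the promoters below are a companion measurement in the same 4 libraries. An additive model of surgery and injection was fitted over 22831 promoters, with the spread pooled across genes and not estimated gene by gene. It called 5 lower (0.0219%) and 3 higher (0.0131%) after overload (edgeR quasi-likelihood test, Benjamini-Hochberg adjusted p under 0.05). The 5 lower promoters belong to Ces1d, a carboxylesterase that splits lipid esters, Lpl, the lipoprotein lipase that frees fatty acids for the heart, Adh1, an alcohol dehydrogenase, Slc26a10, a member of the anion transporter family, and the long non-coding 4930449E18Rik. The 3 higher are those of Mir101c, Sfi1 and 5730507C01Rik.

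Lpl had 817 counts in TAC Veh, 1183 in Sham Veh, 770 in TAC TSA and 1324 in Sham TSA. Both TAC libraries were thus below both sham libraries, also after scaling. The log2 ratio was -0.44 with vehicle (exact 95% interval for counting error -0.57 to -0.31) and -0.32 with TSA (-0.45 to -0.19), and the surgery term was -0.38 (adjusted p = 0.0226, edgeR). Adh1 had 89 and 190 counts in TAC Veh and Sham Veh, and 106 and 205 in TAC TSA and Sham TSA. Its log2 ratios were -1.0 and -0.49 and its surgery term -0.74 (adjusted p = 0.0491, edgeR).

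Ces1d had 68 counts in TAC Veh, 190 in Sham Veh, 148 in TAC TSA and 252 in Sham TSA, and its log2 ratio was -1.39 with vehicle and -0.31 (-0.61 to -0.01) with TSA. After scaling to equal library size, its TAC TSA count (293.9) was above its Sham Veh count (280.4). Slc26a10 had 536, 823, 525 and 878 counts in the same order of libraries, with ratios of -0.53 and -0.28. The RNA 4930449E18Rik had 412, 682, 467 and 733 counts, with ratios of -0.63 and -0.19. None of the 5 was called with loess scaling of the libraries (adjusted p between 0.525 and 0.828, edgeR) or by DESeq2. With loess scaling the surgery terms were -0.80 for Ces1d, -0.78 for Adh1, -0.29 for Lpl, -0.32 for Slc26a10 and -0.33 for 4930449E18Rik. These terms combine both pairs of libraries. The loess ratios of the TSA pair alone were -0.29, -0.55, -0.20, -0.15 and -0.06 in that order of genes.

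The other 15 of the 20 lower promoters with the smallest p did not pass the threshold. Angptl4, a secreted inhibitor of lipoprotein lipase, had 384 counts in TAC Veh, 550 in Sham Veh, 339 in TAC TSA and 644 in Sham TSA (log2 ratios -0.43 and -0.47, adjusted p = 0.054, edgeR). Acaa2, a thiolase of mitochondrial fatty acid oxidation, was at -0.37 and -0.34 (adjusted p = 0.0814, edgeR). Trak1, an adaptor that moves mitochondria, was at -0.48 with both injections, and Pln, the brake of the calcium pump, at -0.59 and -0.34. Of the 20, 19 were below 0 in both pairs of libraries and 11 had both intervals below 0. Over all 22831 promoters 6749 were below 0 in both pairs. The 20 were chosen by the surgery term of the same libraries, so their counts are a description only. The muscle microRNA promoter Mir1a-2 was at -0.97 with vehicle and -0.16 with TSA, where its interval (-0.40 to 0.08) included 0. Mir1b shares that locus, with almost the same counts.

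Most of the remaining named promoters were further below sham with 1 injection than with the other, a difference that was not tested. Popdc2, a cAMP-binding membrane protein of heart, was at -0.72 with vehicle and -0.15 with TSA. The fatty acid transporter Cd36 was at -0.66 and -0.19. Klhl38 was at -0.83 and -0.13, and the mitochondrial carrier Slc25a34 at -0.79 and -0.07, where the TSA ratio was 0.05 with loess scaling. The reverse held for Clec2d, a lectin (-0.08 with vehicle and -0.62 with TSA), the class I histocompatibility gene H2-T24 (-0.16 and -0.78) and B430010I23Rik (-0.25 and -0.55). Sh3tc1 was at -0.36 and -0.31, about equally low with both.

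**Figure D5:**
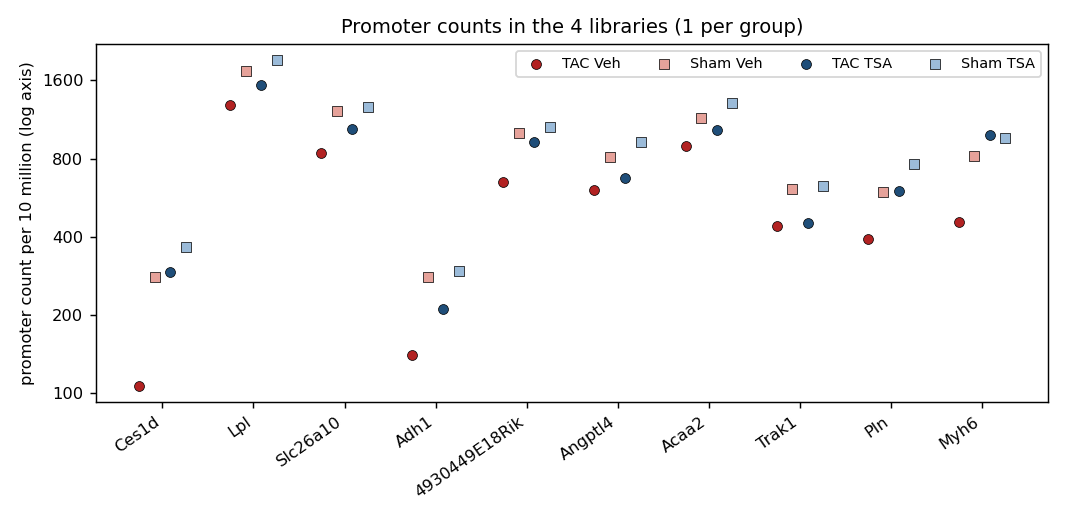
Promoter counts scaled to equal library size (vertical log axis) in the TAC Veh, Sham Veh, TAC TSA and Sham TSA libraries, 1 point per library. Drawn are the 5 promoters called lower after overload, 4 more of the lowest 20 by p, and Myh6 as a contrast. The 4 have log2 ratios of -0.32 or less and intervals below 0 with both injections, so their place below sham follows from the choice. In the first 9 genes each TAC circle lies below its own sham square, while for Myh6 this holds with vehicle (log2 ratio -0.84) and not with TSA (0.04, or -0.56 when libraries were scaled on silent receptor promoters).

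To show the sequence at promoters that were below sham with both injections, the RefSeq start-site windows (GRCm38.p6, 250 bases before to 50 after the start) are given for Adh1, Slc26a10 and Pln. Capitals mark the letters TATAAA, 1 form of the TATA box, on either strand. The letters AGGTCA, a nuclear receptor half-site, were also searched on both strands and are in none of the 3 windows. Of 32851 windows 13.6% hold TATAAA and 16.3% AGGTCA.
Adh1, chr3:138277335-138277634, plus strand: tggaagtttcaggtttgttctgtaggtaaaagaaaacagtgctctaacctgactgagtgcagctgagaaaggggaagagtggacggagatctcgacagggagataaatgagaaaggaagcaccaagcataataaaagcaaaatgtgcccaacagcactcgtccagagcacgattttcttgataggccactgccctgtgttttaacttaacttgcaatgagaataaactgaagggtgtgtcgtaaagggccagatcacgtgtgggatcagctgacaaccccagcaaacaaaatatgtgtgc
Slc26a10, chr10:127180533-127180832, minus strand: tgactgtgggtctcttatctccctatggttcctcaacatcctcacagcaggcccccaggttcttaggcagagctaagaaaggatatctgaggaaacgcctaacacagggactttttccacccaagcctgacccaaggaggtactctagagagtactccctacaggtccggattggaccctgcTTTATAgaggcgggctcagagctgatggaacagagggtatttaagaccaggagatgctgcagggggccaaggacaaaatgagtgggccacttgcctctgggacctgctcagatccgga
Pln, chr10:53337436-53337735, plus strand: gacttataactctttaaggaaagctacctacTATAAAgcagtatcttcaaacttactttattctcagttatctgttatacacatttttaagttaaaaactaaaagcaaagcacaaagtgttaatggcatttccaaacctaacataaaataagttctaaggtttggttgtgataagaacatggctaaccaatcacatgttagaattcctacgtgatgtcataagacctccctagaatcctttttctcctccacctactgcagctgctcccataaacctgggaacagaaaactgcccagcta
The match began at position -68 from the start site in Slc26a10, where it is on the opposite strand, and at -219 in Pln. Both lie farther from the start site than a TATA box does, so they are matches of letters only. Other forms of the TATA box were not searched, so the windows may hold one elsewhere. The G and C content was 45.3% in Adh1, 53.7% in Slc26a10 and 36.0% in Pln, beside a median of 52.7% over all windows. Adh1 held 6 CG pairs, Slc26a10 4 and Pln 1, beside a median of 7.

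Promoters were also counted by fold in each pair of libraries. At 1.5-fold with the counting interval below 0, 133 promoters (0.583%) were lower with vehicle, 47 (0.206%) with TSA and 0 with both, while 117 were higher with both. The 0 holds at this threshold and does not show that no promoter was lower with both. At a log2 ratio of -0.32 or less with both injections, and both intervals below 0, 32 promoters (0.14%) were lower. At the same fold in the other direction, 170 were higher with both. The 32 hold Lpl, Adh1, Angptl4, Acaa2, Trak1 and Pln from above. Named after their values were seen, they also hold Hadh, the dehydrogenase that acts before the thiolase in fatty acid oxidation (-0.33 with vehicle and -0.35 with TSA), triadin, Trdn, of the calcium release complex (-0.58 and -0.36), and the small nucleolar RNA Snora23 (-0.56 and -0.85). These counts depend on the scaling. When libraries were scaled on 1455 olfactory and vomeronasal receptor promoters, which are silent in heart, 392 promoters were 1.5-fold lower with both and 1 higher, and the additive model called 22 lower and 0 higher.

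Of 12 gene lists with 154 measured genes, Lpl in the fatty acid oxidation list was the only gene called. Over all promoters the median log2 ratio was 0.00 with vehicle and -0.01 with TSA. The medians with vehicle and with TSA were -0.57 and -0.01 for 10 cardiomyocyte markers, -0.46 and 0.04 for 20 adult sarcomere genes, and -0.48 and -0.06 for 20 calcium handling and channel genes, where Pln and Trdn are among those 32. They were -0.17 and -0.11 for 20 fatty acid oxidation genes, -0.28 and -0.09 for 10 endothelial markers, and -0.07 and 0.06 for 16 fetal and hypertrophy genes. Fibroblast (0.32 and -0.03), extracellular matrix (0.36 and -0.01) and leukocyte genes (0.32 and -0.33) had a median above 0 with vehicle. So had smooth muscle and pericyte (0.05 and -0.01), interferon and histocompatibility (0.04 and -0.32) and immediate early genes (0.06 and -0.05). With TSA the medians of fibroblast (-0.029), extracellular matrix (-0.005) and smooth muscle and pericyte genes (-0.014) lay near the -0.013 of all promoters. The lists were not matched to other promoters by count. With receptor-promoter scaling the medians of all 12 lists were below 0 with TSA, and with vehicle those of fibroblast (0.08), extracellular matrix (0.12) and leukocyte genes (0.07) alone were above 0. In bulk tissue, fewer cells of a type and less acetylation per cell cannot be told apart.

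Other properties of the libraries also differed between TAC and sham, not all of them with both injections. The receptor promoters held 0.505% of gene counts in TAC Veh against 0.42% in Sham Veh, and 0.677% in TAC TSA against 0.427% in Sham TSA. The total promoter count was 8873302 in TAC Veh against 9612616 in Sham Veh, and 6842296 in TAC TSA against 9905553 in Sham TSA. In the lowest 10% of promoters by mean count the median log2 ratio was 0.30 with vehicle and 0.68 with TSA, and in the highest 10% -0.04 and -0.13. Scaling on receptor promoters shifted all log2 ratios by -0.24 with vehicle and by -0.60 with TSA. The summed scaled counts of the cardiomyocyte markers were 4332 in TAC Veh against 6333 in Sham Veh, but 7275 in TAC TSA against 7370 in Sham TSA. In the same order, endothelial markers had 7544 against 8777 and 8117 against 8589. Fibroblast markers had 3913 against 3204 and 3316 against 3367, and leukocyte markers 3188 against 2507 and 2432 against 3129. Smooth muscle and pericyte markers had 3668 against 3487 and 3378 against 3362. No marker of any cell type was at 0. The part of these values in the regions and promoters listed as lower was not tested.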

How the data were processed

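The authors deposited unnormalised whole counts per RefSeq promoter and 6 region lists, each region with a score from the caller. BWA 0.5.9, MACS 1.4.1 and mm9 are named, per the submitters' processing notes. Their roles, the promoter window, duplicate handling and any input are not stated in the sources used here. Region starts are printed 1-based. Regions are not linked to genes or printed as sequence, because no mm9 annotation was used.

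Of 31594 RefSeq IDs 98.5% matched a symbol (GRCm38.p6, names only). Each gene kept its ID of highest mean count, and 22831 of 23627 genes had a mean count of at least 10. Counts were scaled by TMM (edgeR 4.0.16, R 4.3.3). Pairwise log2 ratios carry exact 95% conditional intervals for counting error, which treat PCR reads as independent. The additive fit has 1 residual degree of freedom, the interaction, so its p-values measure only how these 4 libraries differ. DESeq2 1.42.0 and limma-voom 3.58.1 were alternatives. Overlaps and the fit were tested on simulated data. Of 100 simulated promoters made 1.5-fold lower with both injections, the 1.5-fold count found 22 and the additive model 65. The additive model also called 3 of 22631 unchanged promoters lower, and the 1.5-fold count 4. The simulation had the same spread for all promoters, no interaction and no shift with the count. These numbers therefore do not give the error in the real libraries. Neighbouring genes and gene families may share promoter reads.

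The regions and gene lists were chosen with earlier results of these data known. Named were the 10 regions with the best mean rank, the 5 widest, the 5 stretches of most regions (ties by bases), 3 regions on either side of the threshold, promoters 1.5-fold lower in both pairs, the 20 lower promoters of smallest p and list genes called lower, the last 3 at a mean count of at least 50 outside the lists. The top and bottom vehicle scores among the 14, the chromosomes, the 3 higher promoters and Myh6 were added after their values were seen. Regions were handled in Python 3.11.15 (pandas 2.3.3, scipy 1.17.1, numpy 2.4.6) and plots drawn with matplotlib 3.10.9.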

Additional observations from a re-analysis of the deposited data

Results flagged for a closer look

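In the TAC over sham comparison, 12 regions were lower with vehicle and higher with TSA, and 30 were higher with vehicle and lower with TSA, so the 2 injections gave opposite directions there. The promoter of Mhrt, an antisense RNA of the myosin heavy chain locus, was named among the lowest 20 although its log2 ratio was -0.86 with vehicle and 0.04 with TSA (interval -0.12 to 0.21), or -0.55 with TSA under receptor-promoter scaling. These differences between injections were not tested. Mhrt and Myh6 lie at the same locus and may share promoter reads, which was not tested.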

How the results depend on the processing

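The number of shared regions was 226 with an overlap of 50% of the shorter interval, 176 with 50% of both, 281 when gaps up to 500 bp counted and 242 with X and Y included, beside 240. Only regions at or above the median score of each list gave 82, which are 4.32% and 3.14% of the lists so reduced. The median width was then 1631.5 bp, and 1484 bp with the 50% overlap, beside 1505 bp. Of the 14 regions with more signal in TAC TSA than TAC Veh, 8 met a region of at least the median score of that list. The 0 regions lower there stayed 0 under all 3 alternatives.

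In the additive model, receptor-promoter scaling called 22 promoters lower and 0 higher (2603 and 142 at an unadjusted p under 0.05). Loess scaling called 0 lower (666 unadjusted) and 2 higher. DESeq2 called 0 lower and 0 higher (15 and 32 unadjusted), beside 5 and 3 (937 and 1191 unadjusted) and limma-voom's 4 and 4. Of the 5, receptor-promoter scaling left Ces1d and Adh1 past the threshold and loess left none, although the surgery term of the 3 lost under receptor-promoter scaling was larger there (-0.80 for Lpl, -0.82 for Slc26a10 and -0.83 for 4930449E18Rik, adjusted p = 0.358, edgeR), DESeq2 size factors moved Adh1 to 0.0571 and Angptl4 to 0.0476, and the surgery term of every named promoter kept its direction under these 3 scalings. The ratio with TSA turned for Slc25a34 with loess (0.05) and for Mhrt (-0.55) and Myh6 (-0.56) with receptor-promoter scaling. Promoters 1.5-fold apart with both injections numbered 392 lower and 1 higher with receptor-promoter scaling, 12 lower and 1 higher with loess, 32 lower at a log2 ratio of -0.32, 42 higher at 2-fold and 4 higher among promoters of at least 100 mean counts. The cause of these differences was not tested. No paired analysis was possible because each group has 1 library, and no library could be left out for the same reason.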
